A study of Rattus norvegicus with 32 samples.

Results

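Mammary gland of the rat strain Cop was compared with mammary gland of the strain F344, with 5 arrays of each, chosen by their titles. These 10 arrays belong to a series of 32, which also holds 5 arrays each of ACI, BUF/N and WF, 5 of the hybrid F1(CopXF344), and 1 pool for each parent strain. All tissue was normal mammary gland and no group received a treatment that the labels mention. The labels give no age, sex or stage of the reproductive cycle. They name no animals, so the 5 samples of a strain may or may not be 5 rats. Every p-value reflects only how much samples vary within groups. That spread is shared over Cop, F344, ACI, BUF/N, WF and the hybrid, which all entered 1 fit. The pools were kept out of the test and served only as a check of direction.

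The Cop or Copenhagen rat is known for its resistance to chemically induced mammary cancer, and F344 is an inbred strain that does develop such tumours. The resting mammary gland is a tree of ducts lined by luminal epithelium, wrapped in contractile basal cells and embedded in a fat pad. Its RNA therefore comes from epithelium, fat, vessels, immune cells and any muscle cut with it. In such whole tissue, fewer cells of a type and less RNA per cell cannot be told apart.

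Each value is a signal computed for 1 probe set, a group of short probes against 1 transcript, in arbitrary units. Changes are differences between group means of log2 signal, Cop minus F344, after signals below 18.3 had been set to that floor, and each is given with its standard error (SE). They come from limma, with p-values adjusted by the Benjamini-Hochberg method over the 5039 probe sets tested, and a probe set was called when its adjusted p was under 0.05. Signals are listed in the order of samples 1 to 5. A difference between the strains in the sequence under the probes and a difference in the amount of RNA cannot be told apart from these values.

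The annotated promoter windows of 4 genes are shown. Lcn2 and Hs6st1 were chosen because they had the highest and the lowest change of all genes. Alb and Fgg were chosen because both are genes of liver plasma proteins and they differed in opposite directions. Each sequence runs from 250 bases before to 50 after the annotated start, and comes from RefSeq on the build GRCr8, which was assembled from neither Cop nor F344. Capitals mark exact matches to any of 5 motifs searched on both strands, where N stands for any base.
Lcn2, chr3:36081731-36082030, minus strand: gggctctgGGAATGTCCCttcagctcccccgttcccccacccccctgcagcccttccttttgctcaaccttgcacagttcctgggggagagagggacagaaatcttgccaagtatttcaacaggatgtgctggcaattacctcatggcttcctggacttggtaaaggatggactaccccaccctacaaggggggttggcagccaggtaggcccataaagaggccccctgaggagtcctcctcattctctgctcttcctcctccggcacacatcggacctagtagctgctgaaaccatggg
Hs6st1, chr9:45779152-45779451, plus strand: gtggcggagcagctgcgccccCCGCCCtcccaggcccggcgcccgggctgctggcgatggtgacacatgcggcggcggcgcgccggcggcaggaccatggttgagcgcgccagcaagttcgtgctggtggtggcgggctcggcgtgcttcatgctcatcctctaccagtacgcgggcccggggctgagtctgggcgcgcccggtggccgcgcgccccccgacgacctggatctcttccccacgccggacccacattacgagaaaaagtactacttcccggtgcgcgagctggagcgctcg
Alb, chr14:17906930-17907229, minus strand: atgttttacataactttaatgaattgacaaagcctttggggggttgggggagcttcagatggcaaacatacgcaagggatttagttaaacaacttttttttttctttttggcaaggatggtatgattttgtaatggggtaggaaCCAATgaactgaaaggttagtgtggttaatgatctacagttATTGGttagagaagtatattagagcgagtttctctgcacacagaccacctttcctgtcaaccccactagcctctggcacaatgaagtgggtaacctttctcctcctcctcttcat
Fgg, chr2:170652833-170653132, plus strand: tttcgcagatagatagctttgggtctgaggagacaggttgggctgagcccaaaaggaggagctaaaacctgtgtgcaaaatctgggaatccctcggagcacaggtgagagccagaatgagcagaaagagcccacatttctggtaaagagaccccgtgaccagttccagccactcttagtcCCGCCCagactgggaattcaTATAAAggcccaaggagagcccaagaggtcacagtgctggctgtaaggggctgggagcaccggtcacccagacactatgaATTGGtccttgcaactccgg
In Lcn2 the capitals mark a kappaB-type match, GGGANNTTCC on the other strand, starting at position -242 from the annotated start. Such a match occurs in 1.3% of 33469 rat promoters of this length. The Hs6st1 window held 1 GC box (GGGCGG, in 33.1% of promoters) and the Alb window 2 CCAAT motifs (37.5%). From the ATG in atgcggcggcggcgc to its end, the Hs6st1 window reads in frame without a stop codon. Much of it may thus be coding sequence rather than promoter, and the position of its GC box relative to a true start is uncertain. The Fgg window held 1 CCAAT motif, 1 GC box and 1 TATA box (TATAAA, 14.2%). The HNF1-type motif GTTAATNATT, found in 0.335% of promoters, had no exact match in the 4 windows. The Alb window holds gttaatgatc, which differs from that motif in the last letter only and was not counted.

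Of the 5039 probe sets tested, 174 (3.45%) passed the test, of which 85 (1.69%) gave more signal in Cop and 89 (1.77%) less. Beyond 2-fold there were 35 higher and 55 lower. The called changes had a median size of 1.02 on the log2 scale, and the smallest was 0.43. At 136 of the called probe sets the 5 Cop signals did not overlap the 5 F344 signals, and over all tested probe sets 364 (7.22%) had no overlap. An unadjusted p under 0.05 was reached by 709 probe sets. Counted with 1 probe set per gene, the one with the highest mean signal, 99 of 3053 genes (3.24%) were called, 48 (1.57%) higher and 51 (1.67%) lower, and the median change of all genes was 0.05. Just inside the threshold lay Cd151, Tcn2 and S100a4 with limma adjusted p of 0.0492 to 0.0497, and just outside it Dusp1, Napa and Tnfrsf21 with 0.0524 to 0.0532. The number of calls fell whichever single array was left out, each such fit having 1 array fewer. It was lowest without Cop 2 (118), and was 119 without F344 5 and 120 without F344 4. Of the 174 called probe sets, 145 carried 1 gene symbol.

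**Figure D1:**
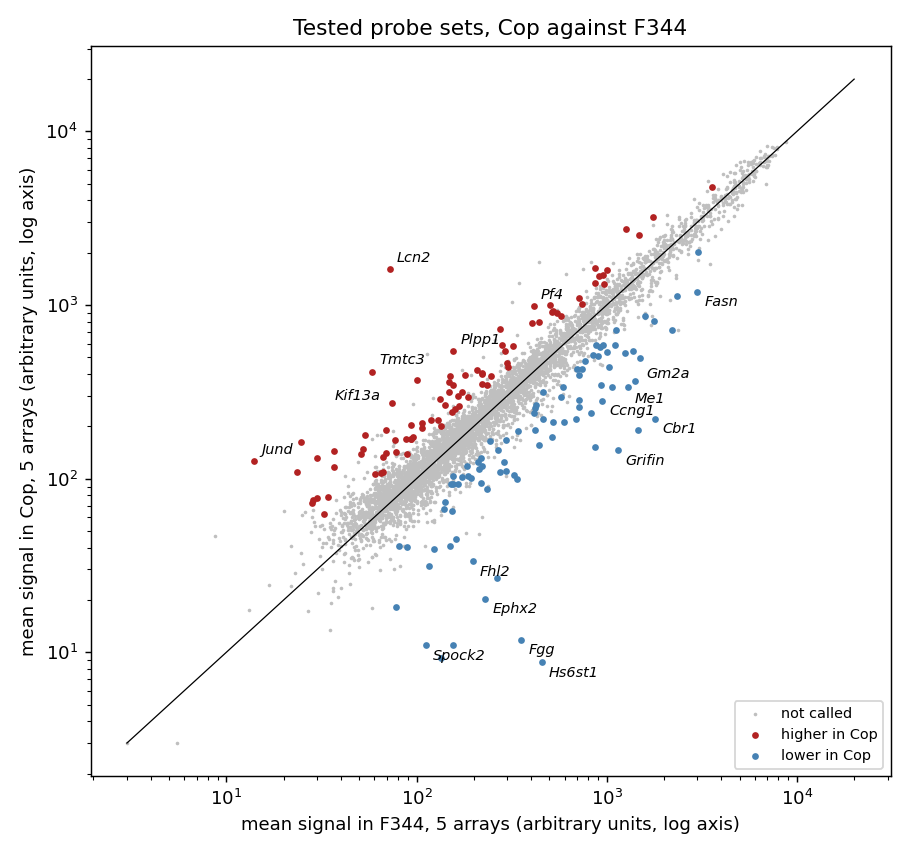
Mean signal of each tested probe set in Cop (vertical log axis, arbitrary units, 5 arrays) against F344 (horizontal log axis, 5 arrays), with called probe sets in red where higher in Cop and in blue where lower. Most of the 5039 points lie along the line of equal signal, while Lcn2 stands far above it and Hs6st1, Fgg, Spock2 and Ephx2 far below.

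Arrays of F344 correlated with each other at r = 0.964 to 0.973 across the tested probe sets and arrays of Cop at 0.929 to 0.958, and a Cop and an F344 array at 0.908 to 0.949. These correlations run over probe sets, which do not count as replicates. Median signals ran from 68.9 to 77.3 over the 10 arrays. The 3' to 5' signal ratio of the actin control, a sign of RNA quality, was 1.10 to 1.72 in Cop, with the 2 highest values in Cop 3 (1.72) and Cop 4 (1.51), and 1.23 to 1.48 in F344. For the GAPDH control the ratio was 0.91 to 1.14 in Cop and 0.91 to 1.01 in F344. The labels name no batch.

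The highest change was that of Lcn2, which encodes lipocalin-2, a secreted protein of epithelia and neutrophils that binds bacterial iron carriers. Lcn2 signals were 1151, 1982, 2013, 1277 and 1657 in Cop and 80.9, 81.6, 64.6, 93.5 and 41.1 in F344. The groups were far apart, with every Cop sample above 1100 and every F344 sample under 100. The change was 4.50 (SE 0.33, limma adjusted p = 5.2e-11).

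Tmtc3 adds mannose to proteins in the endoplasmic reticulum. It gave 330.5, 310.2, 513, 490.4 and 425 in Cop and 73.6, 57.2, 54.7, 51.3 and 55.4 in F344, a change of 2.81 (SE 0.24, limma adjusted p = 1.8e-09). Kif13a, a kinesin motor of vesicle transport, was the most even of the large differences. Its Cop signals were 244, 282, 268, 280.2 and 282 and its F344 signals 75.8, 78.3, 71.7, 74.6 and 72.4, a change of 1.86 (SE 0.15, limma adjusted p = 2.8e-10). Bmp3, a BMP family ligand that antagonises other BMPs, was called at both of its probe sets. The larger change was 2.0 (SE 0.27, limma adjusted p = 6.4e-06), with 191, 115, 117, 151 and 149 in Cop and 50.6, 31.0, 46.9, 24.1 and 32.2 in F344, and the second probe set gave 1.70.

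Jund, an AP-1 transcription factor, gave 109, 112, 131, 154 and 122 in Cop and 8.6, 9.1, 20.3, 13.7 and 18.4 in F344. The F344 samples lay at or near the floor, so the change of 2.74 (SE 0.36, limma adjusted p = 4.7e-06) depends on where the floor is set. It was the only called gene of 19 tested AP-1 and immediate early genes, whose median change was 0.01. Plpp1, a lipid phosphate phosphatase of the plasma membrane, was higher at 2 of its 3 probe sets, with changes of 1.79 (SE 0.22, limma adjusted p = 1.4e-06) and 1.03, and 0.38 (adjusted p = 0.4) at the remaining one. At the first its Cop signals were 610.3, 484, 392, 577 and 643 and its F344 signals 141, 156, 202, 128 and 150.5. Aifm2, a flavoprotein that reduces ubiquinone and opposes lipid peroxidation, was higher at both probe sets, by 1.14 (SE 0.18, limma adjusted p = 0.00012) and 1.08. Hyou1, a chaperone of the endoplasmic reticulum, was higher by 1.14 (SE 0.26, limma adjusted p = 0.0087), and Klc1, a kinesin light chain, by 0.85 (SE 0.15, limma adjusted p = 0.00041) at 1 probe set and by -0.09 (adjusted p = 0.91) at the other.

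Hs6st1 had the lowest change of all. It encodes a 6-O-sulfotransferase that decorates heparan sulfate chains. Hs6st1 signals were 6.5, 12.3, 8.6, 10.2 and 6.3 in Cop, all below the floor, and 569, 409.8, 403, 449 and 446 in F344. The level in Cop was at least 24.7-fold lower (limma adjusted p = 4e-18). Spock2, a secreted proteoglycan of the testican family, was also below the floor in every Cop sample, with 7.3, 17.3, 9.0, 13.2 and 8.0 against 138, 98.3, 109, 109 and 108 in F344, and was at least 6.1-fold lower (limma adjusted p = 6.4e-08). In the list of 17 tested heparan sulfate and proteoglycan genes these were the 2 called lower, and Cspg4, the NG2 proteoglycan of pericytes, was called higher by 0.86 (SE 0.19, limma adjusted p = 0.0053). The median change of the list was -0.06, against 0.05 for all genes.

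Grifin, a galectin-related protein best known from the lens, gave 168, 149, 139, 148 and 127 in Cop and 1412, 1283, 1076, 904 and 1052 in F344. The change was -2.96 (SE 0.19, limma adjusted p = 2.5e-12), with little spread in Cop. Fhl2, a LIM domain cofactor of transcription, gave 20.9, 21.8, 53.4, 11.3 and 60 in Cop and 218, 206, 161, 206 and 194 in F344, a change of -2.68 (SE 0.36, limma adjusted p = 8.8e-06). Gm2a, the lysosomal activator protein for ganglioside breakdown, gave 478, 377, 252, 377 and 334 in Cop and 1449, 1116, 1397, 1638 and 1457 in F344. Its change was -1.98 (SE 0.48, limma adjusted p = 0.014). All 3 genes had 1 tested probe set each and kept their call without any single array. Hk2, the hexokinase of muscle and fat, changed by -1.90 (SE 0.42, limma adjusted p = 0.0063) at 1 probe set and by -0.31 (adjusted p = 0.46) at its other. Its F344 signals were 181, 146, 173, 69.5 and 179.5 and its Cop signals 68.9, 28.1, 31.9, 25.8 and 49.2, so that F344 4 lay just above the highest Cop sample.

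**Figure D2:**
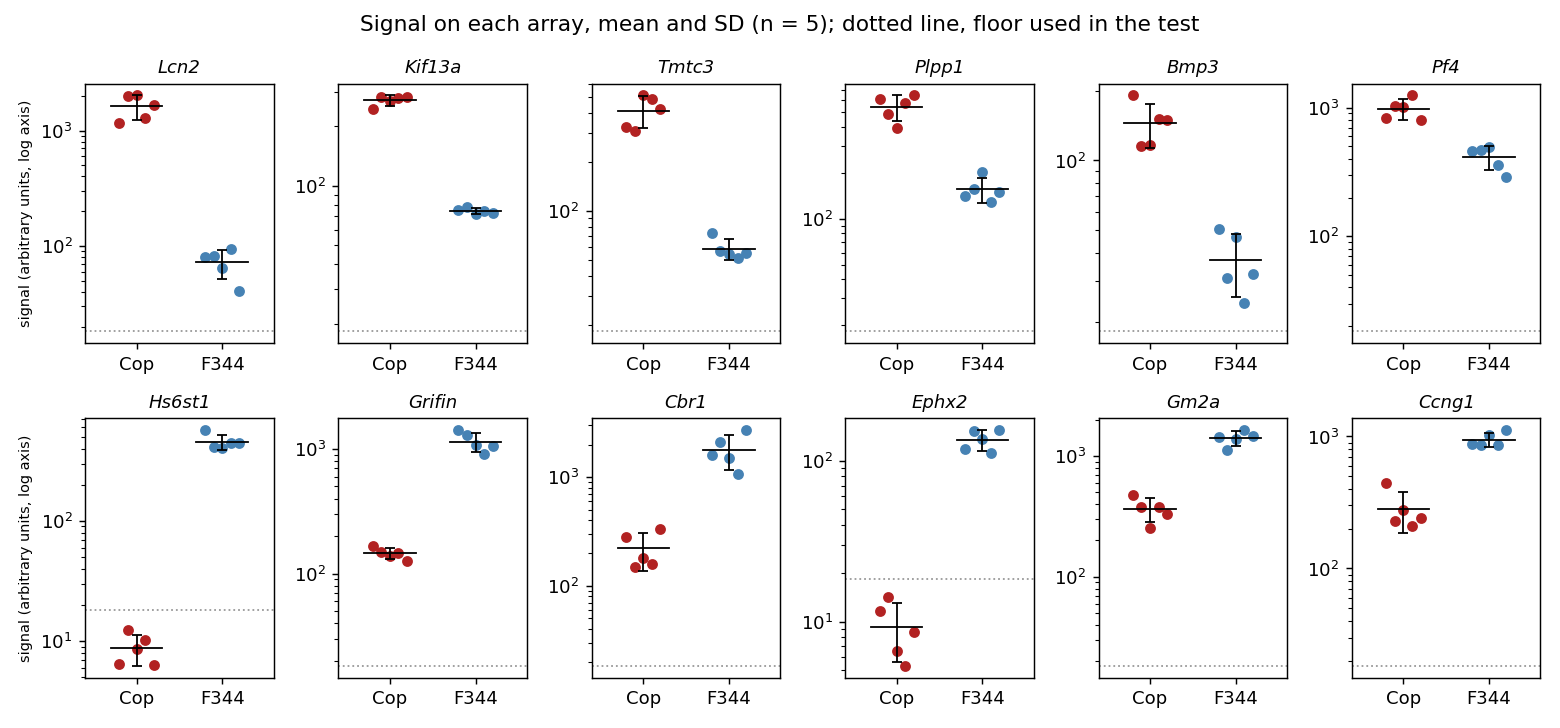
Signal (log axis, arbitrary units) on each array for 6 genes higher and 6 genes lower in Cop, with the mean and SD of 5 arrays and the floor of 18.3 as a dotted line. The 12 genes were taken from the called ones without overlap, so the red Cop and blue F344 points are apart in every panel by choice. Over all tested probe sets 7.22% had no overlap. For Hs6st1 and Ephx2 the 5 Cop points lie below the floor.

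Enzymes that handle foreign compounds and reactive carbonyls held some of the largest decreases in Cop. Phase I enzymes oxidise, reduce or hydrolyse such compounds, and phase II enzymes join them to glutathione and other groups. Ephx2 encodes the soluble epoxide hydrolase, which opens epoxides of fatty acids. At 1 of its 3 called probe sets the signals were 11.6, 14.3, 6.6, 5.3 and 8.6 in Cop and 119, 153, 137, 111 and 155 in F344. All Cop values were below the floor there, and the level was at least 7.31-fold lower (limma adjusted p = 2.6e-09). The other called probe sets gave changes of -3.29 and -3.02, both with Cop 2 as the highest Cop sample (56.8 and 19.9). The brightest of its probe sets gave -0.78 and was not called (adjusted p = 0.32).

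Cbr1 encodes a carbonyl reductase that acts on quinones, prostaglandins and anthracyclines. Cbr1 signals were 282, 148, 179.9, 160.1 and 337 in Cop and 1593, 2091, 1504, 1065 and 2713 in F344. The lowest F344 sample was above the highest Cop sample by a wide margin, and the change was -3.02 (SE 0.31, limma adjusted p = 6.4e-08), with -2.88 at the second probe set. Akr1c3, an aldo-keto reductase of steroids and prostaglandins, gave 79.7, 143, 82.3, 113 and 78.7 in Cop and 252, 388, 419.8, 283 and 354 in F344. Its changes were -1.79 (SE 0.23, limma adjusted p = 4.7e-06) and -1.57 at its 2 probe sets, with no overlap at either.

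Among the 26 tested phase I genes, none was called higher and 2 (Cbr1 and Akr1c3) were called lower at the brightest probe set, and the median change was -0.03. Cyp2e1, a cytochrome P450 of small solvents, was the exception at another probe set, with a change of 1.95 (SE 0.53, limma adjusted p = 0.032), while its remaining 2 gave 1.29 and 1.25 (adjusted p of 0.083 and 0.075). Its Cop signals were 227, 438, 654, 363 and 156 and its F344 signals 48.4, 184, 72.0, 159 and 42.4, which overlap. That call was lost without each of Cop 2, Cop 3, Cop 4, F344 1, F344 3 and F344 5 (limma adjusted p 0.068 to 0.12) and without the filter on dim probe sets (0.087). Cyp1b1 (0.66, SE 0.31, adjusted p = 0.33), which activates aromatic hydrocarbons, and Ephx1 (-0.13, SE 0.24, adjusted p = 0.9), the microsomal epoxide hydrolase, did not pass limma's test.

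Of 36 tested phase II and antioxidant genes, 2 were called higher, 1 lower, and the median was -0.03. The glutathione transferase Gstm1 gave 804, 1132, 996, 966 and 694 in Cop and 483, 518, 564, 484 and 560.3 in F344, a change of 0.80 (SE 0.15, limma adjusted p = 0.001). Its other probe sets gave 0.95 and 0.96, the latter not called (adjusted p = 0.076). Gstt1 was higher by 0.77 (SE 0.17, limma adjusted p = 0.0069). Gstt2, which lies near it with 2 genes between, was called in both directions, the only gene of the comparison for which that happened. One of its probe sets gave 190.2, 200.1, 242, 229.5 and 203 in Cop and 711, 523, 438, 487 and 464 in F344, a change of -1.28 (SE 0.18, limma adjusted p = 1.3e-05). The other gave 411, 452, 426, 377 and 325 in Cop and 216, 264, 197, 204 and 223 in F344, a change of 0.85 (SE 0.18, limma adjusted p = 0.0034). No direction is therefore given for Gstt2.

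Several genes that make fatty acids were lower in Cop, while several of fat storage and breakdown were higher. Of 13 tested fatty acid synthesis genes, 3 were called lower (Me1, Fasn and Acaca), none was called higher, and the median change was -0.48. Me1, malic enzyme, supplies the reducing power for synthesis. Me1 signals were 992, 495, 820, 725 and 544 in Cop and 2390, 1570, 2237, 738 and 4090 in F344, a change of -1.46 (SE 0.36, limma adjusted p = 0.015), and all 4 of its probe sets were called lower (-1.19 to -1.70). Only F344 4 fell within the Cop range. The call at this probe set was lost without Cop 2 (limma adjusted p = 0.058) or F344 5 (0.075).

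Fasn, the fatty acid synthase, gave 1644, 967, 847, 1404 and 1089 in Cop and 3044, 2163, 3052, 1623 and 5064 in F344. Its change was -1.27 (SE 0.28, limma adjusted p = 0.0069), and a second probe set gave -0.94 (adjusted p = 0.24). Acaca, the acetyl-CoA carboxylase that makes malonyl-CoA, gave 147, 109, 92.6, 87.2 and 109 in Cop and 266, 210.5, 239, 146 and 508 in F344, a change of -1.23 (SE 0.27, limma adjusted p = 0.0069). In both genes F344 4 was again the lowest F344 sample and overlapped Cop, and F344 5 was the highest. Gpam, which starts glycerolipid synthesis, was lower at 2 of 4 probe sets, by -1.62 (SE 0.37, limma adjusted p = 0.0073) and -1.18, with -0.90 and -1.12 at the others. The smaller of its calls was lost without each of Cop 3, Cop 4, Cop 5, F344 1 and F344 5 (0.058 to 0.15). Acly, the ATP citrate lyase, was called at 1 of 3 probe sets, with -1.12 (SE 0.28, limma adjusted p = 0.018) and -0.84 and -0.67 at the others, and lost that call without Cop 5 (0.064) or F344 5 (0.092).

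This order of F344 4 and F344 5 was first seen in called genes of the list and then counted over it. In 7 of the 13 fatty acid synthesis genes (53.8%) F344 4 was the lowest and F344 5 the highest of the F344 arrays, against 4.36% of all 3053 tested genes. The count includes the genes in which the order was first seen, so it describes the list and is no test. The mean centred log2 level of the list was 0.50, 0.11, 0.20, -0.14 and 0.73 in F344 and -0.23, -0.41, -0.29, -0.16 and -0.32 in Cop, so F344 4 stood just above Cop 4. The summed signal of the 13 genes overlapped between the strains, with 16466 to 21211 in Cop and 17274 to 31550 in F344. The part of single arrays in the change of the list was not tested beyond leaving each out in turn.

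**Figure D3:**
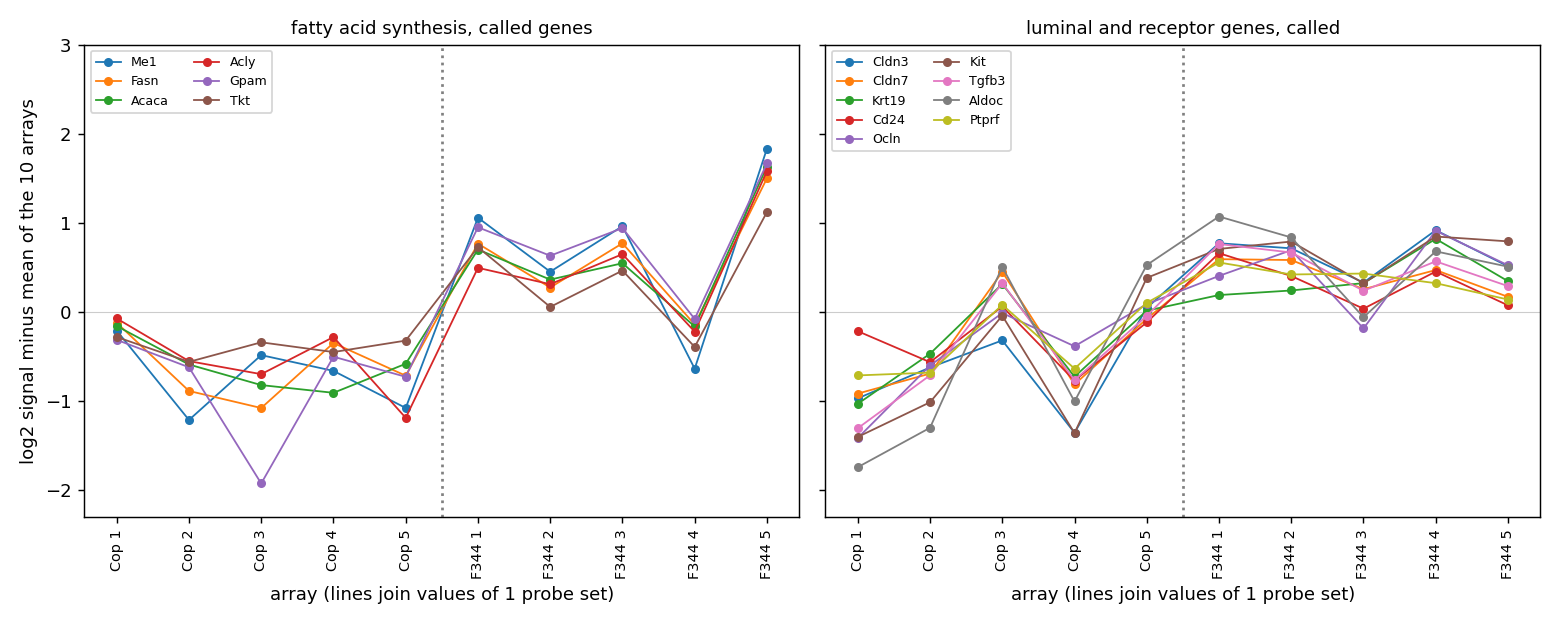
Log2 signal minus the mean of the 10 arrays for called genes, against array, with a line for each gene. The left holds 6 genes of fat synthesis and the pentose pathway. The right holds 9 genes lower in Cop, namely Cldn3, Cldn7, Krt19, Cd24, Ocln, Kit, Ptprf, Tgfb3 and Aldoc. Tgfb3 and Aldoc are neither luminal markers nor receptors, and come from the TGF-beta and BMP list and the glycolysis list. On the left F344 5 is highest and F344 4 lowest of F344 in all 6 genes. On the right Cop 3 and Cop 5 are the 2 highest Cop arrays in all 9. The genes on both sides were chosen after their values were seen, so these orders are no test.

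None of 13 tested sterol synthesis genes was called at its brightest probe set, and their median was -0.19. Msmo1 (-0.94) and Dhcr7 (-0.74) were called at a dimmer probe set, against -0.38 and -0.19 at the brighter one, but Msmo1 lost the call without any array except Cop 1, Cop 4 and F344 4 (limma adjusted p 0.053 to 0.11) and Dhcr7 without any except Cop 3 (0.056 to 0.17). In the list of 18 adipocyte genes, 3 were called higher, none lower, and the median was 0.19. Plin1, the perilipin that coats the lipid droplet, gave 414, 312, 466, 527 and 312 in Cop and 209, 252, 230.2, 189 and 228 in F344, a change of 0.85 (SE 0.22, limma adjusted p = 0.021). The strains did not overlap, but the call was lost without each of Cop 3, Cop 4, F344 1 and F344 4 (0.052 to 0.088).

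Adrb3, the beta-3 adrenergic receptor that starts lipolysis, gave 610, 575, 542, 626 and 353 in Cop and 338, 358, 315, 246 and 199 in F344. Its change was 0.90 (SE 0.19, limma adjusted p = 0.0047), with Cop 5 alone in the F344 range. Lpl, lipoprotein lipase, was higher by 0.43 (SE 0.11, limma adjusted p = 0.027) at 1 probe set, while its other 2 gave 0.11 and -0.24 (adjusted p of 0.88 and 0.7). Its call was lost without each of Cop 1, Cop 4, Cop 5, F344 2, F344 4 and F344 5 (0.054 to 0.11) and with arrays centred on the median (0.077). The summed signal of the 18 adipocyte genes was 34805 to 42360 in Cop and 31747 to 34078 in F344, without overlap. Such a sum weighs bright genes most. The mean centred log2 level of the list did overlap. It was 0.27, 0.12, 0.1, 0.15 and -0.05 in Cop and -0.14, -0.12, -0.06, -0.24 and -0.03 in F344.

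Of 18 tested genes of mitochondrial beta oxidation, 1 was called higher and none lower, with a median of 0.13. It was Decr1, the dienoyl-CoA reductase, with 1471, 1596, 1824, 1215 and 1380 in Cop and 1054, 911, 1024, 756 and 1039 in F344, a change of 0.64 (SE 0.16, limma adjusted p = 0.019) and 0.83 at its second probe set. The first call was lost without Cop 2, Cop 3 or F344 4 (0.058 to 0.08) and the second without Cop 1 or F344 4 (0.05 and 0.053), and both with centring on the median (0.1 and 0.057). Ivd, an enzyme of leucine breakdown, was higher by 1.10 (SE 0.26, limma adjusted p = 0.011) at 1 probe set and by 0.49 and 0.44 at 2 others that were not called. Car4, a membrane-bound carbonic anhydrase, was higher at both of its probe sets, by 1.02 (SE 0.21, limma adjusted p = 0.0039) and 0.85.

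**Figure D4:**
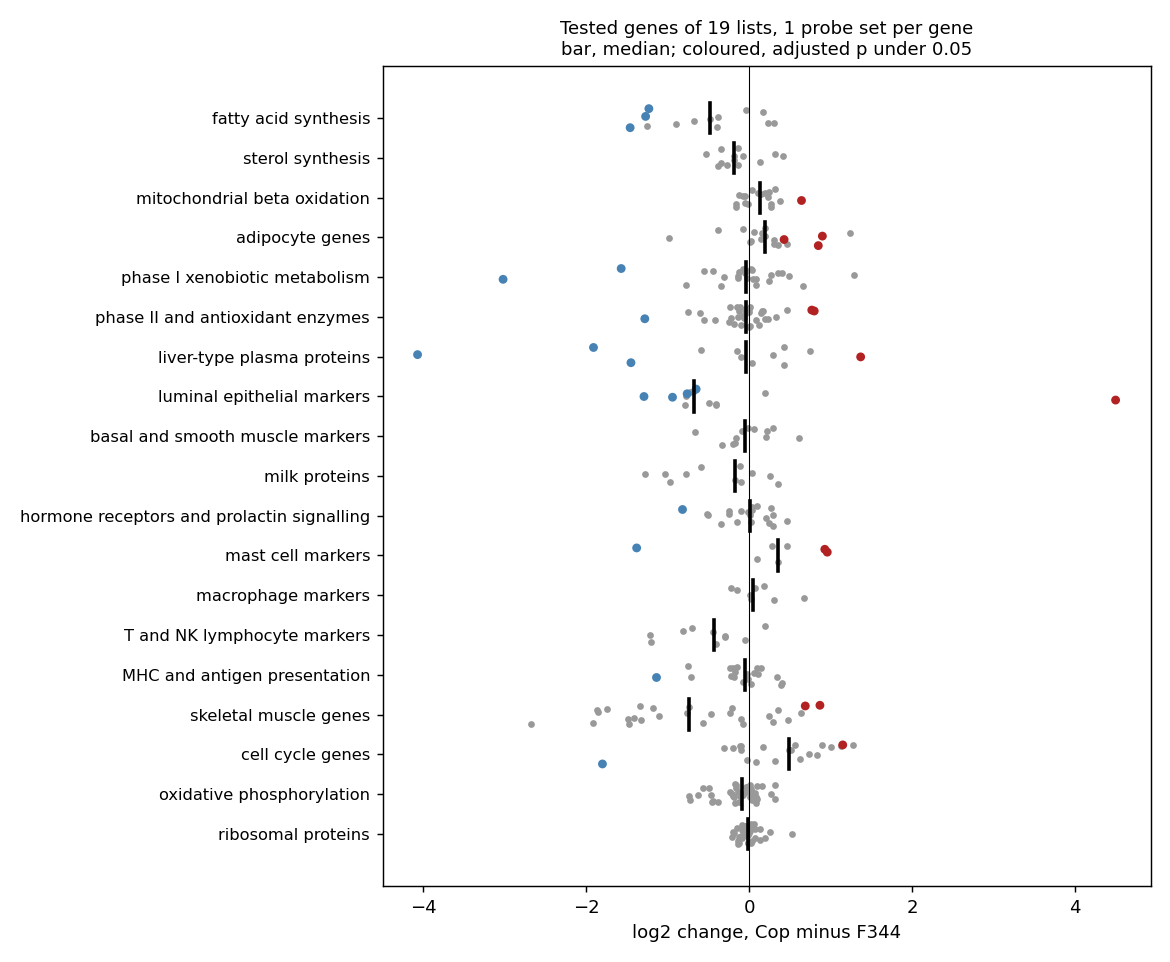
Log2 change, Cop minus F344, of each tested gene in 19 gene lists (1 point per gene at its brightest probe set), with the list median as a bar and called genes in colour. Fatty acid synthesis (-0.48), luminal (-0.67) and skeletal muscle (-0.74) medians lie left of 0, the cell cycle median (0.49) right of it, and ribosomal proteins (-0.01) are packed at 0.

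Several genes of the luminal epithelium, the cells that line the ducts, were lower in Cop, and Lcn2 was higher. Of 13 tested luminal markers, 4 were called lower (Cldn3, Cd24, Krt19 and Ocln), 1 was called higher (Lcn2), and the median was -0.67, against 0.05 for all genes. Without Lcn2, 11 of the other 12 had a negative change and the median was -0.69. Their summed signal was 5676, 5917, 7556, 4978 and 8025 in Cop and 10128, 9925, 7549, 10509 and 8538 in F344. Cop 3 and Cop 5 reached the level of F344 3, the lowest F344 sample, and the other Cop samples did not.

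Cldn3, a claudin of the tight junction, was called at both probe sets without overlap. At the brighter one its signals were 332, 422, 522, 254 and 672 in Cop and 1111, 1068, 818, 1230 and 929 in F344, a change of -1.29 (SE 0.24, limma adjusted p = 0.001). Cd24, a surface glycoprotein of luminal cells, was called at all 3 probe sets (-0.65 to -1.11), and at the brightest it gave 760.4, 597, 922, 518 and 814 in Cop and 1396, 1168, 906, 1210 and 929.8 in F344. Krt19, a luminal keratin, was called at both of its probe sets (-0.76 and -0.89). Both Cldn3 calls kept their side of the threshold without any single array. The brightest Cd24 probe set lost it without each of Cop 2, Cop 4, F344 1, F344 2 and F344 4 (limma adjusted p 0.072 to 0.14), and with quantile normalization (0.054). The Cd24 call with the largest change (-1.11) was lost without each of Cop 1, Cop 2, Cop 4, F344 1, F344 2, F344 4 and F344 5 (0.054 to 0.19). It was also lost without the filter (0.095), with an offset of 50 in place of the floor (0.051) and with centring on the median (0.05). The brighter Krt19 probe set lost its call without any array except Cop 3 and Cop 5 (0.052 to 0.15), and the dimmer one without Cop 1, Cop 4 or F344 4 (0.059 to 0.074). With only the 10 arrays both Krt19 calls were lost (0.078 and 0.074). The brighter one was also lost with centring on the median (0.051) and without the filter (0.08). Ocln, the tight junction protein occludin, was lower by -0.94 (SE 0.26, limma adjusted p = 0.04) at its brightest probe set and by -0.27 and -0.81 (adjusted p of 0.79 and 0.27) at 2 others that were not called. The Ocln call was lost without any array except Cop 3, Cop 5 and F344 3 (0.072 to 0.15), with only the 10 arrays (0.075) and without the filter (0.081). Krt18, the partner keratin of luminal cells, changed by -0.41 (SE 0.17, adjusted p = 0.24) and did not pass.

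Kit, a receptor tyrosine kinase found on luminal progenitors and on mast cells, gave 66.5, 87.1, 171, 68.5 and 229 in Cop and 287, 304, 219.9, 316 and 305 in F344. Its change was -1.38 (SE 0.30, limma adjusted p = 0.0053), with -0.96 at its second probe set, and Cop 5 was the single sample within the F344 range. Ptprf, a receptor tyrosine phosphatase, was lower by -0.74 (SE 0.17, limma adjusted p = 0.0092) with no overlap. Cop 3 and Cop 5 were the 2 highest Cop arrays in 8 of the 13 luminal markers (61.5%), in 12 of the 51 genes called lower (23.5%), in 0 of the 48 called higher and in 9.2% of all tested genes. This order was first seen in some of the same genes, so the shares are descriptions and no test. Cop 3 also had the highest actin 3' to 5' ratio (1.72) while Cop 5 had the lowest of the 10 arrays (1.10). The part of these arrays in the luminal change was not tested beyond leaving each out.

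Of 20 tested hormone receptor and prolactin pathway genes, 1 was called lower, none was called higher, and the median was 0.02. The called one was Prlr, the prolactin receptor, with 312, 289, 392, 347 and 336 in Cop and 636, 517, 540.3, 716 and 549.6 in F344. The strains did not overlap and the change was -0.82 (SE 0.22, limma adjusted p = 0.028). Its other probe sets gave -0.57 and -0.64 (adjusted p of 0.075 and 0.098), and the call was lost without each of Cop 1, Cop 2, Cop 4, F344 1, F344 4 and F344 5 (0.05 to 0.094) and without the filter (0.055). Pgr, the progesterone receptor, changed by -0.34 (SE 0.38, adjusted p = 0.79). Esr1, the estrogen receptor alpha, was too dim to be tested.

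Milk protein genes gave no call among 11 tested, with a median of -0.17. Csn2, beta casein, gave 10.8, 26.4, 46.3, 22 and 550.5 in Cop and 572, 153, 33.7, 40.7 and 78.9 in F344, so that 1 sample of each strain was near 550 and the change was -1.03 (SE 0.97, adjusted p = 0.74). None of 12 tested basal and smooth muscle markers was called, with a median of -0.05, and the basal keratin Krt14 changed by -0.66 (SE 0.33, adjusted p = 0.38).

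Among 24 tested genes of EGF, FGF and other growth factor signalling, none was called higher and 2 were called lower (Kit and Fgfr2), and the median was -0.03. Igfbp5, which binds insulin-like growth factors and is known from the involuting gland, gave 334, 157, 209, 249 and 238 in Cop and 944, 802, 701, 964 and 733 in F344. That change was -1.83 (SE 0.33, limma adjusted p = 0.00074), yet its other 2 probe sets gave -0.13 and 0.69 and were not called. Ret, the receptor of GDNF family ligands, changed by -1.83 (SE 0.36, limma adjusted p = 0.002) at 1 probe set and by -0.09 at the other, and the first was not called with the floor at the 40th percentile (0.098). Msx1, a homeobox factor downstream of BMPs, was lower by -1.13 (SE 0.25, limma adjusted p = 0.0072) with no overlap. Fgfr2, a receptor of epithelial growth factors, was lower by -0.79 (SE 0.21, limma adjusted p = 0.03) at 1 of 3 probe sets, with -0.36 and -0.75 (adjusted p of 0.23 and 0.099) at the others. The pool ratio at the called one was -0.06. Fgfr2 lost the call without each of Cop 1, Cop 2, Cop 3, F344 1, F344 3 and F344 4 (0.059 to 0.096).

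H19, an imprinted noncoding RNA, gave 668, 104, 299, 511 and 109 in Cop and 769.7, 876, 1211, 1131 and 1368 in F344, a change of -2.02 (SE 0.49, limma adjusted p = 0.015) and -1.44 at its second probe set. The Cop samples ranged widely while F344 was more even, and the call was lost without Cop 2 (0.071) or Cop 5 (0.057). Of 17 tested genes of the IGF axis and imprinted group, 1 was called higher and 2 lower, with a median of 0.04. In the TGF-beta and BMP list 1 of 23 was called higher (Bmp3) and 2 lower, with a median of 0.11.

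Genes of plasma proteins that the liver makes in bulk split by direction. Of 12 tested, 1 was called higher (Alb), 3 were called lower (Fgg, Cp and C4bpa), and the median was -0.03. Fgg encodes the gamma chain of fibrinogen. Fgg signals were 14.5, 8.2, 17.2, 8.0 and 11.2 in Cop, all below the floor, and 569, 573, 134, 279 and 226 in F344, at least 16.8-fold lower in Cop (limma adjusted p = 1.7e-05). A second, dimmer probe set gave -1.35 (adjusted p = 0.12). F344 1 and F344 2 were the highest for Fgg.

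Cp, ceruloplasmin, a copper ferroxidase, gave 189, 163, 397, 187 and 355 in Cop and 1132, 981, 401, 532 and 522 in F344. F344 1 and F344 2 were the highest here too, and Cop 3 came within a few units of F344 3. The change was -1.45 (SE 0.34, limma adjusted p = 0.0097), with -1.38 at the second probe set. C4bpa, an inhibitor of complement, was lower by -1.91 (SE 0.41, limma adjusted p = 0.005), with 51.9, 32.1, 21.6, 28.2 and 22.8 in Cop and 123, 185, 77.9, 112 and 87.9 in F344. Alb, albumin, was called higher at all 3 probe sets (1.37, 1.46 and 2.68). At the brightest it gave 548, 364, 320.4, 427 and 296 in Cop and 184, 161, 132, 162 and 113 in F344, which do not overlap. That call was lost without Cop 1 (limma adjusted p = 0.06) or F344 5 (0.061), and the largest of the 3 was not lost without any array.

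Class II MHC genes, whose products present peptides to helper T cells, differed at single probe sets. RT1-Db1 gave 148, 159.7, 141, 196 and 225 in Cop and 464, 488, 559, 602 and 464 in F344, a change of -1.58 (SE 0.28, limma adjusted p = 0.00049), but its brighter probe set gave -0.75 (adjusted p = 0.16). RT1-Ba gave 747, 1001, 689, 610.2 and 988 in Cop and 1639, 2432, 1408, 1849 and 1567 in F344, a change of -1.14 (SE 0.24, limma adjusted p = 0.0045), with -0.39 and 0.45 at its other probe sets. These 2 genes are direct neighbours and vary in sequence between strains. Of 20 tested MHC and antigen presentation genes, 1 was called at its brightest probe set, and the median was -0.05.

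Markers of mast cells went both ways. Of 7 tested, 2 were called higher (Tpsab1 and Milr1), 1 lower (Kit, which luminal cells share), and the median was 0.36. Tpsab1, a mast cell tryptase, gave 158, 189, 140.3, 204 and 159.8 in Cop and 89.3, 89.0, 100.4, 77.8 and 86.0 in F344, a change of 0.93 (SE 0.19, limma adjusted p = 0.0034). Milr1, an inhibitory receptor of mast cells, gave 184, 204, 207, 234 and 209 in Cop and 114, 99.1, 102, 119 and 100.5 in F344, a change of 0.96 (SE 0.19, limma adjusted p = 0.0016). Neither overlapped between the strains, and neither call was lost without any array. The summed signal of the 7 markers was 2912 to 3794 in Cop and 2455 to 2816 in F344.

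Pf4, a platelet chemokine, gave 823, 1025, 1015, 1243 and 800.2 in Cop and 457, 472, 493, 359 and 288 in F344, a change of 1.26 (SE 0.17, limma adjusted p = 8.8e-06). It was the only called gene of 6 tested platelet and red cell genes, whose median was 0.02. Il18, a cytokine that drives interferon gamma, was lower at both probe sets (-1.45 and -1.13), and the calls were not firm. The first was lost without each of Cop 1, Cop 2, Cop 4, F344 3, F344 4 and F344 5 (limma adjusted p 0.052 to 0.1) and the second without any array except Cop 3 and F344 2 (0.06 to 0.11). Among 10 tested T and NK cell markers 1 had a positive change, the median was -0.42 and none was called, with 821 to 1720 summed in Cop and 1089 to 1986 in F344. Cd8a (-1.22, SE 0.69, adjusted p = 0.47) and Cd3d (-1.20, SE 0.67, adjusted p = 0.45) overlapped between the strains. None of 8 macrophage markers (median 0.04) and none of 3 B cell markers (median -0.52) was called.

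Of 21 tested cell cycle genes, 1 was called higher and 1 lower, and the median change was 0.49. The change was positive in 14 of them and in 1748 of all 3053 tested genes. Pttg1, securin, which holds sister chromatids together until anaphase, gave 178, 192, 155, 208 and 294 in Cop and 86.1, 68.4, 139.9, 93.7 and 79.0 in F344. The strains did not overlap, and the change was 1.15 (SE 0.26, limma adjusted p = 0.0083). Top2a, a topoisomerase of dividing cells, did not overlap either, with 246, 321, 238, 256 and 389 in Cop and 123, 93.6, 159.6, 148 and 84.2 in F344. Its change of 1.27 (SE 0.45) had a limma adjusted p of 0.14. The SE draws on the log2 spread in all 6 groups. The SD of the linear Top2a signal was 64.2 in Cop, 32.8 in F344, 80.5 in F1, 156 in ACI, 237 in BUF/N and 101 in WF. In the same order the mean signals were 290.1, 122, 143, 422, 348 and 247. With such unlike means these SDs do not compare directly with the SE.

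Ccng1, cyclin G1, a target of p53, went the other way. Ccng1 signals were 446, 229, 278, 211 and 241 in Cop and 870.1, 864, 1019, 865 and 1116 in F344, a change of -1.80 (SE 0.24, limma adjusted p = 8.8e-06). Among 20 tested genes of p53 function, apoptosis and DNA repair it was the only one called, and their median was -0.10.

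Matrix genes held 2 calls lower among 28 tested, with a median of 0.04. Mgp, the matrix Gla protein that inhibits calcification and belongs to no list used here, gave 902, 882, 1077, 1207 and 1532 in Cop and 2059, 2316, 2546, 2504 and 2355 in F344, a change of -1.10 (SE 0.19, limma adjusted p = 0.00032). Mmp2, a gelatinase, was lower by -0.70 (SE 0.17, limma adjusted p = 0.015) and lost the call without Cop 1 (0.064) or F344 2 (0.061). Itga1, the integrin subunit for collagen, was lower by -0.81 (SE 0.15, limma adjusted p = 0.0011), and Fstl1, a secreted follistatin-like glycoprotein, was higher at both probe sets, by 0.80 (SE 0.18, limma adjusted p = 0.0094) and 0.94.

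Skeletal muscle genes, which mark muscle cut with the gland, varied within both strains. Their summed signal over 27 tested genes was 31441, 3538, 13222, 12205 and 5478 in Cop and 7979, 18596, 18198, 21069 and 32684 in F344. The strains overlapped widely, the median change was -0.74, and the 2 calls were both higher in Cop. These were Itga7 (0.69, SE 0.18, limma adjusted p = 0.021), an integrin subunit for laminin, and Chrna1 (0.87, SE 0.23, limma adjusted p = 0.031), a subunit of the acetylcholine receptor. Cop 2, with the lowest summed muscle signal, gave 1413 for Itga7 and 161 for Chrna1, above every F344 sample (at most 1087 and 83.7). The other probe sets of Itga7 gave 0.26 and 0.38 (both adjusted p = 0.46) and were not called. Itga7 lost its call without each of Cop 1, Cop 4, F344 4 and F344 5 (0.06 to 0.082) and Chrna1 without any array except Cop 1, Cop 3 and F344 3 (0.052 to 0.091).

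Lists with no called gene included 43 ribosomal protein genes (median -0.01, range -0.21 to 0.53), 42 genes of oxidative phosphorylation (median -0.09), 13 of complement and interferon response (median -0.01) and 7 clock genes (median -0.29). In glycolysis and gluconeogenesis none of 21 genes was called higher and 2 lower, with a median of -0.10.

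Calls at 1 gene did not always extend to all of its probe sets. Of the 117 genes with a called probe set, 62 had more than 1 tested. At least 2 probe sets were called the same way in 22 of these, only 1 in 39, and in both directions in Gstt2 alone. In 4 of the 39 another probe set had the opposite sign. The other 55 called genes rest on 1 tested probe set each, Lcn2, Hs6st1, Grifin, Kif13a, Tmtc3 and Jund among them.

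In the pools, the log2 ratio of Cop over F344 had the same sign as the change between the samples at 173 of the 174 called probe sets, and was beyond 1 in that direction at 80. It was 4.18 for Lcn2, -4.75 for Hs6st1, -3.09 for Grifin and 3.64 for Jund. Whether a pool shares RNA with the single samples is not stated, so this is no independent test. The exception was Abcc9, a potassium channel subunit named here only for this, with a pool ratio of -0.77 and a called change above 0.

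**Figure D5:**
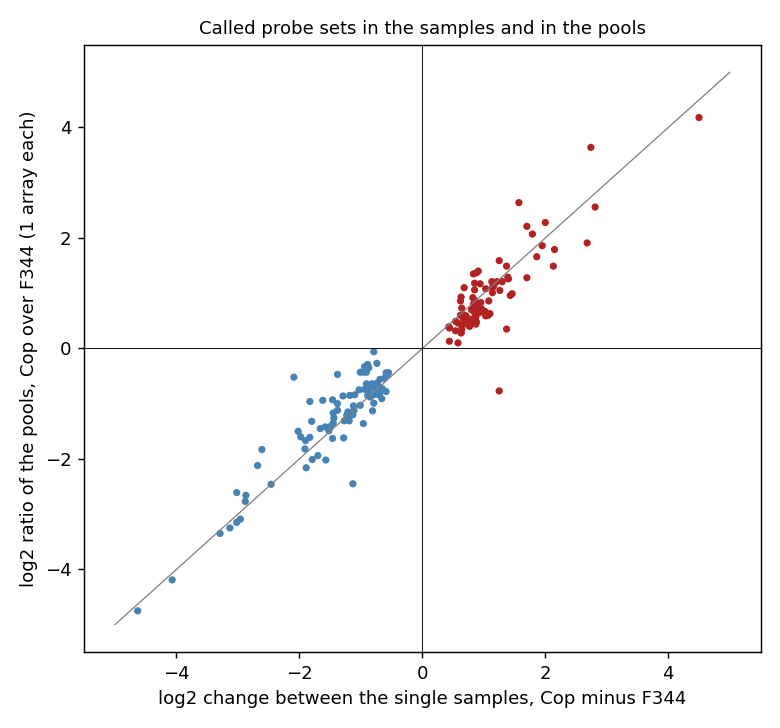
Log2 ratio of the Cop pool over the F344 pool (1 array each, vertical) against the log2 change between the single samples (horizontal) for the 174 called probe sets, in red where higher in Cop and blue where lower, with the line of equal values. All points but 1 have the same sign on both axes.

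ACI, BUF/N and WF were all nearer to Cop in mean log2 level at 33 of the 174 called probe sets and all nearer to F344 at 56, and they split at 85. The F1 hybrid was nearer to Cop at 77. For Hs6st1 the mean signals were 283 in F1, 798 in ACI, 558 in BUF/N and 504 in WF, so Cop stood alone at the floor. For Grifin they were 557 in F1, 99.6 in ACI, 193 in BUF/N and 61.5 in WF, where F344 was the highest group. Kif13a gave 224 in F1, 308 in ACI and 248 in BUF/N, all above F344 (74.6). For Ephx2, at the probe set wholly below the floor in Cop, ACI was at 11 and BUF/N and WF at 72.8 and 108. These levels are descriptions without a test.

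Of the called genes, 116 could be placed in the gene order of GRCr8, and 6 pairs had at most 9 genes between them. How many such pairs a random order would give was not computed. RT1-Ba and RT1-Db1 were adjacent and both lower. H2ax and Hyou1, with 2 genes between, were both higher. The H2ax call was lost without each of Cop 1, Cop 2, Cop 5, F344 1, F344 4 and F344 5 (limma adjusted p 0.057 to 0.13). It was also lost with an offset of 50 (0.051), without the filter (0.074) and with centring on the median (0.071). Cebpb and Ptpn1 were both lower, while Aldoc and Vtn, and Anpep and Plin1, held changes of opposite sign at the probe sets used. Vtn, Anpep, Cebpb and Ptpn1 are named for their position only. For Gstt1 and Gstt2 the directions are not compared, as Gstt2 was called both ways (-1.28 and 0.85).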

How the data were processed

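RNA of each sample was hybridised to 1 Affymetrix rat array. The deposited values are linear intensity signals from Affymetrix Microarray Suite 5.0, per the labels, for 8799 probe sets with 59 controls among them. Trimmed means were 249.29 to 249.99 on all 32 arrays, which shows scaling to 1 target. Detection calls and probe-level data were not used here. Groups came from the titles.

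Signals under the 25th percentile (18.3) were raised to it before taking log2. Testing required a signal above the overall median (78.4) on 5 or more of the 30 single-sample arrays. All 6 groups entered 1 fit (limma 3.58.1, R 4.3.3, variance trend, 29.58 degrees of freedom), tested on simulated data. The array table and a gene table gave 1 symbol to 7018 probe sets, several to 308 and none to 1473. Where all Cop signals lay under the floor, the fold is a lower bound.

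Genes named were the called ones without overlap, up to 40 each way by size, called members of 41 lists, up to 3 members of lists with a median beyond 0.25, and 9 set genes. The members and lists were chosen with earlier results of these data known. Of the genes so chosen, 1 is not reported here, Adipoq had no probe set with 1 symbol, and the least firm are given by count only. A list uses the brightest probe set of each gene and is described by counts and median, without a test.

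Alternatives for scale were quantile normalization, centring, an offset of 50 and the 10th or 40th percentile as floor. Others were a 15-array filter or none, replicate block, array weights, no trend, only the 10 arrays, pools as sixth samples, 4 arrays of other groups left out, each array left out, adjusted p under 0.01, and, chosen after seeing the data, the 10 arrays with the replicate block.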

Additional observations from a re-analysis of the deposited data

Results flagged for a closer look

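Of 258 groups of 5 signals (the named probe sets in each strain), 12 had 1 sample far from the other 4, by a criterion that chance meets in about 1 of 20 groups. The number is thus no higher than chance gives, and the values are listed without further weight. For Ephx2 it was Cop 2, at 56.8 against 7.1 to 13.3 at 1 probe set and at 19.9 against 4.5 to 11.6 at another. At both, the other 4 Cop values were raised to the floor of 18.3 and so tied. Any value above the floor is flagged there, and the chance rate does not apply. For Jund it was F344 3 (20.3 against 8.6 to 18.4, all near the floor). Gpam in Cop 3 was low (17.0 against 39.0 to 52.0). F344 4 was low for Hk2 (69.5 against 146 to 181) and Gstm1 (361 against 409 to 425) and high for Krt19 (1236 against 798 to 889.5). Kit was low in F344 3 (219.9 against 287 to 316) and Dhcr7 high in F344 1 (577 against 369 to 416). Cop 5 was high for Csn2 (550.5 against 10.8 to 46.3) and Bhlhe41 (968 against 679 to 726) and low for Adrb3 (353 against 542 to 626).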

How the results depend on the processing

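No named probe set changed sign under the alternatives run. List medians did so 33 times in 12 lists, all with a main median of at most 0.06 in size, and the median over all probe sets went from 0.027 to -0.006 with centring. Calls higher in Cop outnumbered the lower ones with array weights (53.1%) and with only the 10 arrays (51%, and 51.4% with the block). The main count of 174 (85 higher, 89 lower) became 480 (255 and 225) with array weights, 292 (149 and 143) with only the 10 arrays, 290 (138 and 152) without F1 2, F1 3, ACI 2 and ACI 5, and 90 (44 and 46) at an adjusted p under 0.01. These fits held 174, 157 and 174 of the main calls for the first 3. The floors, offset, filters, quantile normalization, centring, no trend and pools as sixth samples gave 153 to 246. Leaving out 1 array gave 118 to 161 calls. Of these, 56 to 79 were higher and 59 to 90 lower, with the lowest without F344 5 and without Cop 2. Of 114 called named probe sets, 63 kept their call without any single array and 55 in every fit. Under the alternatives list medians moved by less than the spread between samples 690 times and by more 7 times. Same-numbered Cop and F344 deviations correlated at -0.337 to 0.093 and differently numbered ones at -0.205 to 0.246, and no number matched best. This gave no sign of pairing by replicate number, but such a check cannot exclude it. With the replicate block 174 were called, 165 of them shared, and with the block on the 10 arrays alone 148, of them 112 shared. Dim probe sets near the floor limit the fold changes, and 5 arrays a group set the precision.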
